A study of Mus musculus with 40 samples.

Results

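The replication-dependent genes for the linker histone H1 and the core histones H2A, H2B and H4 were followed through eye development in embryos of the Aey69 mouse line and in wild-type embryos (Ctrl). Earlier results of these data were known when the family was chosen. Its genes were taken by symbol, as all array probes annotated to H1f1 to H1f5 or to an H2ac, H2bc or H4c gene. This gave 43 of 25697 probes and 41 of 16593 named genes, namely 5 H1, 14 H2A, 12 H2B and 10 H4 genes. All 41 were matched to RefSeq by gene ID. Of these genes, 5 (H2ac18, H2ac20, H2ac21, H2bc18 and H4c14) lie in the chromosome 3 cluster and the others on chromosome 13.

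The Aey69 line arose from ENU mutagenesis of C3HeB/FeJ mice and carries a missense change in Hist2h3c1 (H3c14 on the array), which encodes a histone H3.2 and lies on chromosome 3. Untreated Aey69 mutants and wild-type mice, all labelled as C3HeB/FeJ, were sampled at E9.5 as whole embryo (4 Aey69, 3 Ctrl), at E10.5 as head (4 Aey69, 4 Ctrl), at E11.5 as head (4 Aey69, 4 Ctrl), at E12.5 as eye region (4 Aey69, 3 Ctrl) and at E13.5 as eye (3 Aey69, 3 Ctrl). The labels call the samples biological replicates and give neither the zygosity of the mutants nor the number of embryos per sample. Stage and tissue change together, except between E10.5 and E11.5, where heads were taken at both. For the 3 Ctrl eyes grouped as E13.5, some label fields give E12.5, while the title and the age field give E13.5.

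Replication-dependent histone genes are transcribed mainly during S phase, when new chromatin is assembled behind the replication fork. H2A, H2B and H4 form the nucleosome core together with H3, and H1 binds the linker DNA between nucleosomes. Most of these mRNAs end in a conserved stem-loop, bound by SLBP, instead of a poly(A) tail, although human H1-2 and several H2B genes can also make polyadenylated mRNA in differentiating cells. NPAT acts as a coactivator at histone promoters, HINFP binds a conserved element of H4 promoters, and POU2F1 (OCT1) binds the octamer of H2B promoters. The array samples were amplified from an oligo(dT) primer, and the share of each histone mRNA captured in that way is not known. Coding sequences of core histone genes are closely alike within a class, so a probe may also have taken signal from other genes of its class. The probe sequences were not used here.

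The promoters of the 6 genes that passed the test at E11.5 are shown first, as RefSeq gives them on GRCm38.p6, from 250 bases before to 50 bases after the annotated start. A promoter was listed for 39 of the 41 genes (not for H2bc4 and H4c14), and H2bc6 has 2, so counts over 40 promoters, or 12 of H2B, hold that gene 2 times. In the H2B promoters, capitals mark CCAAT, or ATTGG where the box lies on the opposite strand. In the H4 promoters, capitals mark GGTCCG, the core of the H4 element.
H2bc7, chr13:23574158-23574457, minus strand: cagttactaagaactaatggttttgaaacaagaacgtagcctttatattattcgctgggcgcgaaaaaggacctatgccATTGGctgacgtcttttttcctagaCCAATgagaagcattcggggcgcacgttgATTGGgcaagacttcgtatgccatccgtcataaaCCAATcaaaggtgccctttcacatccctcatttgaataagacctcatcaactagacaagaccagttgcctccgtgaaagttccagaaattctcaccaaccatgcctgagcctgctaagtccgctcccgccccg
H2bc9, chr13:23543395-23543694, minus strand: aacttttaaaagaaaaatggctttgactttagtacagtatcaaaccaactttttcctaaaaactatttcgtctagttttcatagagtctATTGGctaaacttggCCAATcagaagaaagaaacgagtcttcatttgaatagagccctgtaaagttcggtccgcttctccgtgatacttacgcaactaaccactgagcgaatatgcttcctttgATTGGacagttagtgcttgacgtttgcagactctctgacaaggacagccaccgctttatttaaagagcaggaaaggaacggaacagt
H2bc15, chr13:21753826-21754125, plus strand: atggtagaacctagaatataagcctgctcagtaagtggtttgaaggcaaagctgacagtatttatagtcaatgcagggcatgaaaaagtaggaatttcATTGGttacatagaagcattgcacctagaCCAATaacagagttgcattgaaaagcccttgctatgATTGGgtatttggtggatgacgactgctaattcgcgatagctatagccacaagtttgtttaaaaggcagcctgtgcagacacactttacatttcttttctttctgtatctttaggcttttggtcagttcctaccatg
H2bc3, chr13:23746484-23746783, plus strand: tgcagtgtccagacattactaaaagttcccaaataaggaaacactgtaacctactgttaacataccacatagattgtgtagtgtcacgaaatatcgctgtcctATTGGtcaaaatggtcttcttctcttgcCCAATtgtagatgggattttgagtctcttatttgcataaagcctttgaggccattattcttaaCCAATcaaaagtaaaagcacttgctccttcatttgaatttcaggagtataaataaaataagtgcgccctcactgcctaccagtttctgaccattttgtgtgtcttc
H4c12, chr13:21750504-21750803, minus strand: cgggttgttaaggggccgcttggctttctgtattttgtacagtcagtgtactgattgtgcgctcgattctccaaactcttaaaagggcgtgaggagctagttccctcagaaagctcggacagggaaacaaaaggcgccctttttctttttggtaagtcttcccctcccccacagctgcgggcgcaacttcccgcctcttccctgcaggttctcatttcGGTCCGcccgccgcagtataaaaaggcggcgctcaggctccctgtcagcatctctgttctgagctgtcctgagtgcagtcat
H4c18, chr13:21832148-21832447, minus strand: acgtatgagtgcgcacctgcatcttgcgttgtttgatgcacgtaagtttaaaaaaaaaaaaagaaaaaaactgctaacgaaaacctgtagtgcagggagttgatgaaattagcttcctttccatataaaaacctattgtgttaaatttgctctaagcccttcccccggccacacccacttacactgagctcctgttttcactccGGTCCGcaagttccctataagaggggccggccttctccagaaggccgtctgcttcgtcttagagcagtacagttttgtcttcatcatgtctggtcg

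Promoter letters were searched on both strands. CCAAT stood in 12 of 12 H2B, 14 of 14 H2A and 5 of 5 H1 promoters, in 2 of 9 H4 promoters, and in 37.4% of all 32851 promoters of this length. GGTCCG stood in 9 of 9 H4 promoters and in 1 of 12 H2B promoters (H2bc9), against 8.25% of all promoters. The octamer ATTTGCAT was found in 7 of 12 H2B and 6 of 14 H2A promoters and in 1.74% of all promoters, and among the 4 H2B promoters printed above it is only in that of H2bc3. ATTTGAAT, a spelling that differs from the octamer at 1 base and was searched after the printed promoters had been read, stood in 5 of 12 H2B promoters, those of H2bc3, H2bc6, H2bc7, H2bc9 and H2bc11, in 4 of 14 H2A promoters and in 1.25% of all promoters. The H1 box AAACACA was in 4 of 5 H1 promoters and 7.18% of all promoters. TATAAA was in 27 of 40 promoters of the family, against 13.6% of all promoters. Neighbouring H2A and H2B genes face away from each other over a short stretch, so their windows overlap and hold the same letters in part. A match describes the sequence only.

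Signal was read as log2 of the quantile-normalised bead intensity after an offset of 22, and a probe counted as detected where the scanner's detection p was under 0.05 on 3 or more arrays in a genotype with 4, or on 2 or more in a genotype with 3. Differences below are Aey69 minus Ctrl on this log2 scale, with the standard error of the fit, and a gene is called where its Benjamini-Hochberg adjusted p over all 25697 probes (limma) was under 0.1. Between 44.6% and 54.9% of all probes were detected per array. Detected members numbered 31, 33, 35, 34 and 35 of 41 at E9.5, E10.5, E11.5, E12.5 and E13.5. H1f3, H1f4, H2ac6, H2bc1 and H2bc8 were not detected at any stage. The lens marker genes Cryaa, Cryba1, Crybb1, Crygd and Mip were detected in 1 of 5 cases in Aey69 eye regions at E12.5 and 2 of 5 in Aey69 eyes at E13.5, against 5 of 5 in Ctrl at both stages. In bulk tissue, fewer cells of a type and less RNA per cell cannot be told apart.

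H2A probes gave the brightest signals of the family. H2ac24 averaged 13.66 and H2ac20, on chromosome 3, 13.49 over the 36 arrays. The brightest H2B probes were those of H2bc7 (9.73) and H2bc11 (9.25), the brightest H1 probe that of H1f2 (8.76), and the brightest H4 probes those of H4c11 (7.78) and H4c6 (7.69). These are levels of single probes and do not rank the genes, since probes differ in how they bind. The plot of class means shows how each class moved over the 5 stages. It uses the 33 genes detected on at least 50% of the arrays.

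**Figure D1:**
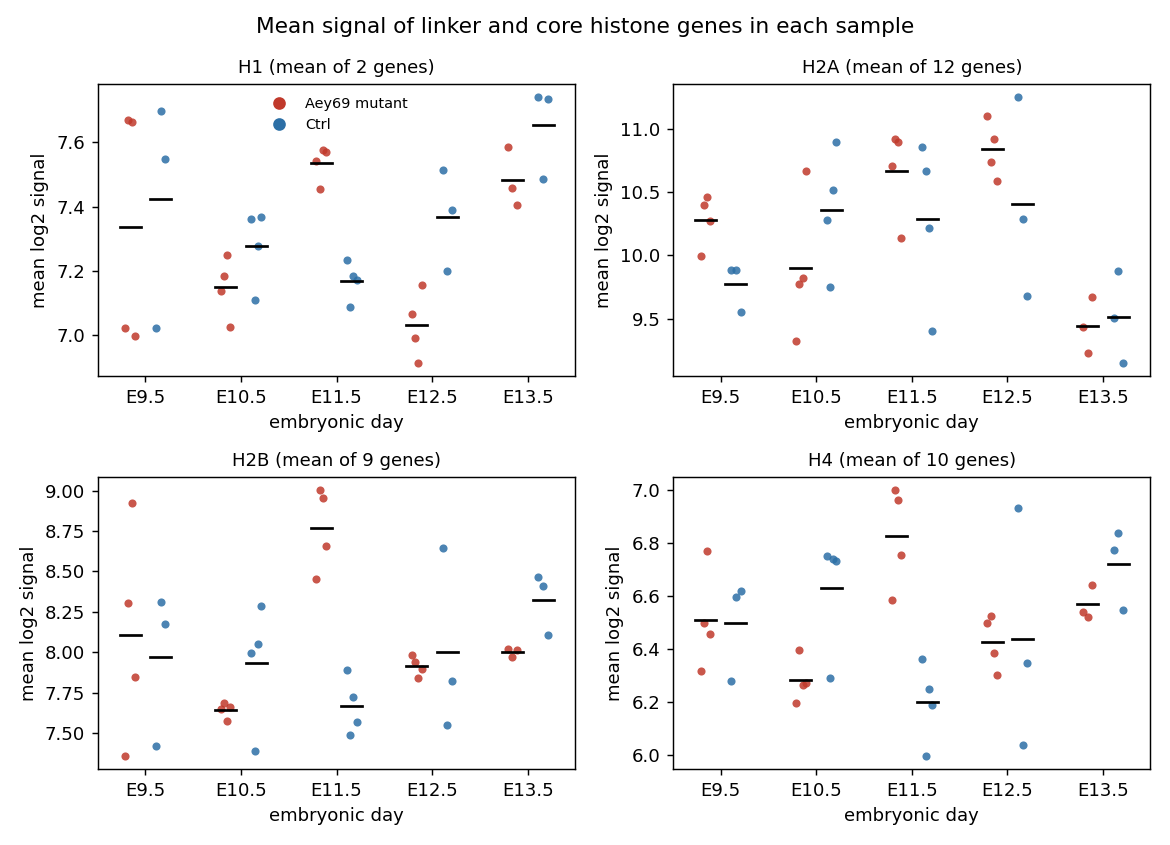
Mean log2 signal per sample over 2 H1, 12 H2A, 9 H2B and 10 H4 genes, plotted by embryonic day. Each point is a sample (Aey69 left, Ctrl right of each tick), and bars are group means. In heads at E11.5 the 4 Aey69 samples lie above the 4 Ctrl samples for H1, H2B and H4, while the H2A samples overlap.

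In heads at E11.5, H2B and H4 genes were higher in Aey69 mutants. H2B class means lay between 8.45 and 9.0 in Aey69 heads and between 7.49 and 7.89 in Ctrl heads. H4 class means lay between 6.58 and 7.0 in Aey69 heads and between 6.0 and 6.36 in Ctrl heads. The fit called 6 of 35 detected members, all of them higher in Aey69: 4 of 10 H2B genes, 2 of 10 H4 genes, 0 of 12 H2A genes and 0 of 3 H1 genes. Of all 9227 genes tested, 0.0759% were called higher, or 7 genes, and 0.0108% lower, so 6 of the 7 higher ones were members. At an unadjusted p under 0.05, 19 of 35 members were higher and 0 lower, against 5.28% of all genes higher and 3.72% lower. The lowest Aey69 head exceeded the highest Ctrl head in 17 members, 8 of 10 H2B, 7 of 10 H4, 2 of 3 H1 and 0 of 12 H2A genes, against 2.53% of all genes. Median differences were 1.00 for H2B, 0.64 for H4, 0.60 for H1 and 0.38 for H2A, beside 0.06 for all genes tested. The H1 median was the value of H1f1, detected in 4 of 4 Aey69 heads and 0 of 4 Ctrl heads. H2bc6, part of the H2B median, was detected in 3 of 4 and 1 of 4. Both passed the detection filter through Aey69 heads only, and H1f1 counts among the 19 and the 17 members above. The calls depended on the fit and on single arrays. In a model of all 10 groups, which share 1 estimate of the spread, 0 members were called at E11.5, and with an offset of 50 the count was 3. With 1 array left out, 6 members were called without Aey69 sample 2 (H2bc11 among them and H4c18 not), 2 without Ctrl sample 2, and 0 without any of the other 6 arrays. The median difference over the members stayed between 0.43 and 0.67 in these 8 fits.

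H2bc7, a core histone gene of chromosome 13, showed the largest positive difference of all 9227 genes tested. Its signal was 10.55, 10.84, 11.24 and 11.31 in the 4 Aey69 heads at E11.5, against 8.86, 8.86, 9.36 and 9.71 in the 4 Ctrl heads. The groups did not overlap, and the difference was 1.79 (SE 0.23, 3.46-fold, limma adjusted p = 0.056). H2bc9, another H2B gene of that cluster, measured 9.78, 10.12, 10.33 and 10.48 in Aey69 heads, against 8.22, 8.26, 8.56 and 8.89 in Ctrl heads. All 4 mutants lay above all 4 controls, by 1.69 on average (SE 0.20, limma adjusted p = 0.035). H2bc15 reached 8.68, 8.81, 9.41 and 9.47 in Aey69 heads, against 7.13, 7.32, 7.58 and 7.86 in Ctrl heads, a difference of 1.62 (SE 0.23, limma adjusted p = 0.062). H2bc3, a dimmer H2B probe, gave 6.44, 6.65, 6.82 and 6.99 in Aey69 heads, against 5.41, 5.43, 5.47 and 5.66 in Ctrl heads. Its 4 Ctrl heads were nearly level, and its difference was 1.23 (SE 0.15, limma adjusted p = 0.041). H2bc11 missed the threshold (limma adjusted p = 0.1005), with 9.81, 10.07, 10.58 and 10.80 in Aey69 heads, against 8.48, 8.60, 8.78 and 9.19 in Ctrl heads (difference 1.55, SE 0.24). The other H2B genes had smaller differences, 0.76 (SE 0.15) for H2bc14, 0.66 (SE 0.18) for H2bc12, 0.34 (SE 0.16) for H2bc6 and 0.06 (SE 0.15) for H2bc4, none of them called.

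**Figure D2:**
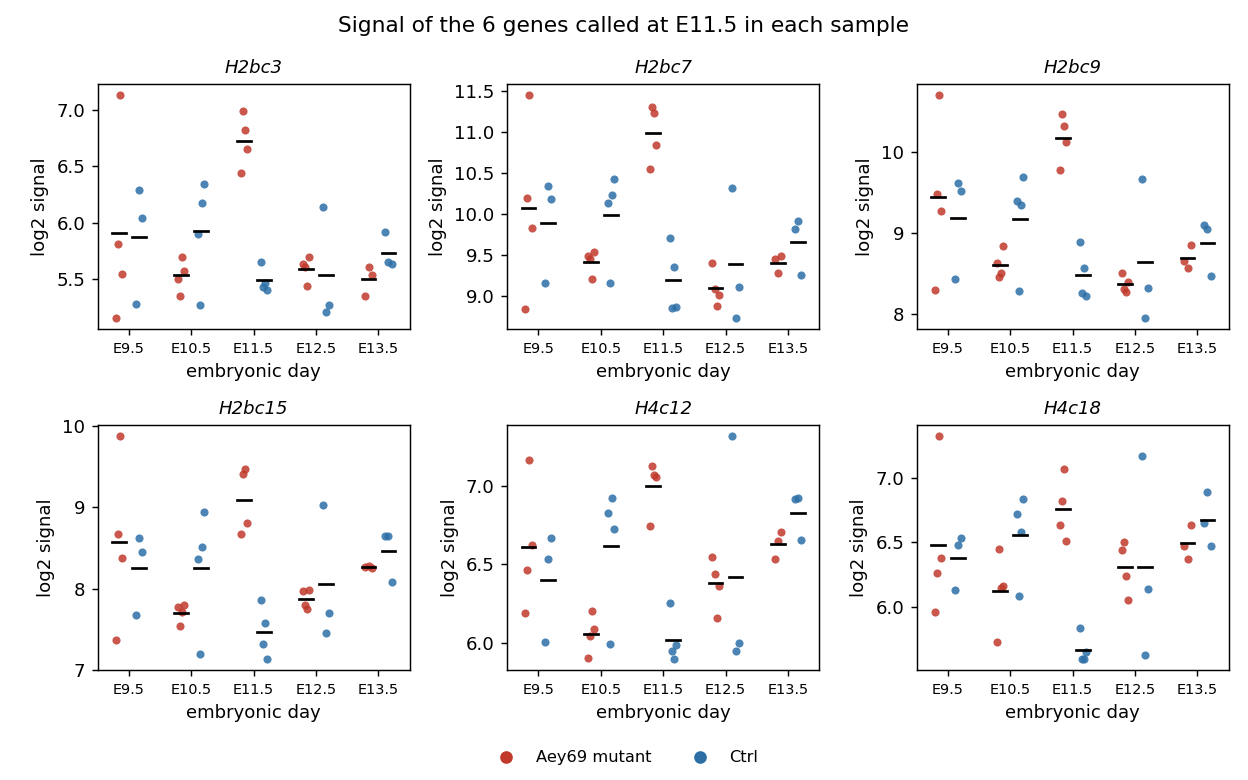
Log2 signal of H2bc3, H2bc7, H2bc9, H2bc15, H4c12 and H4c18 in each sample by embryonic day. Points are samples (Aey69 left, Ctrl right of each tick) and bars are group means. At E11.5 the 4 Aey69 heads lie above the 4 Ctrl heads for all 6 genes, for H2bc7 at 10.55 to 11.31 against 8.86 to 9.71, and at no other stage do the groups separate for all 6.

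H4c12 was higher in Aey69 heads at E11.5, with 6.75, 7.05, 7.07 and 7.13, against 5.89, 5.95, 5.98 and 6.25 in Ctrl heads. The difference was 0.98 (SE 0.15, limma adjusted p = 0.094), and the groups did not overlap. H4c18 measured 6.51, 6.63, 6.82 and 7.07 in Aey69 heads, against 5.59, 5.59, 5.65 and 5.84 in Ctrl heads, a difference of 1.09 (SE 0.15, limma adjusted p = 0.067). The remaining 8 H4 genes had differences between 0.24 (H4c14) and 0.77 (H4c6), none called, and the groups of H4c4, H4c6, H4c8, H4c9 and H4c11 did not overlap.

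The H1 genes differed among themselves at E11.5. H1f5 gave 6.11, 6.32, 6.63 and 6.84 in Aey69 heads, against 5.51, 5.62, 5.70 and 5.76 in Ctrl heads, without overlap (difference 0.83, SE 0.17, not called). H1f1 was detected in 4 of 4 Aey69 heads and 0 of 4 Ctrl heads, so its level in Ctrl is only a bound and it was at least 1.31-fold higher in Aey69 (limma adjusted p = 0.66). The bound sets the mean of the 4 Aey69 heads against the mean, over the Ctrl arrays, of the higher of H1f1's own signal and the lowest signal among detected probes. H1f2, the brightest H1 probe, overlapped between the genotypes, at 8.28 to 8.97 in Aey69 heads and 8.48 to 8.83 in Ctrl heads.

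H2A genes were more scattered. H2ac21, with the largest H2A difference at E11.5, measured 8.10, 9.06, 9.68 and 9.76 in Aey69 heads, against 7.32, 7.91, 9.37 and 9.45 in Ctrl heads. The groups overlapped (difference 0.64, SE 0.50). The brightest H2A gene, H2ac24, gave 13.73 to 14.27 in Aey69 heads and 13.02 to 14.18 in Ctrl heads (difference 0.30, SE 0.25). Only H2ac4 had an unadjusted p under 0.05 among the 12 detected H2A genes (difference 0.51, SE 0.22). The H2A median was 0.06 without Ctrl sample 5. H2A standard errors are wide here, and the absence of a call does not show that H2A was level.

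**Figure D3:**
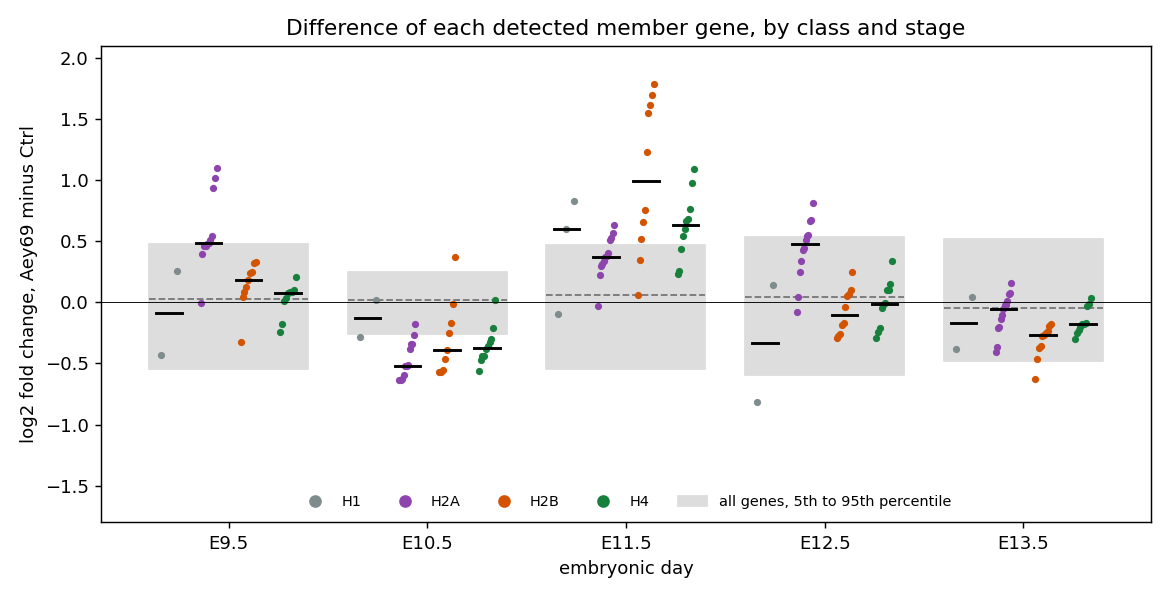
Log2 fold change, Aey69 minus Ctrl, of each detected member gene by embryonic day and class. Points are genes, black bars class medians, the dashed line the median and the grey band the 5th to 95th percentile of all genes tested. H2B (median 1.00) and H4 (median 0.64) lie highest at E11.5, and at E10.5 the medians of all 4 classes lie below 0.

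Several H2A and H2B genes stand back to back and share a promoter region. In 4 such pairs on chromosome 13, with starts 164 to 249 bases apart, both genes were detected. At E11.5 the H2B partner had the larger difference in each pair. H2bc7 differed by 1.79 (SE 0.23) and H2ac7 by 0.22 (SE 0.42). H2bc15 differed by 1.62 (SE 0.23) and H2ac15 by 0.31 (SE 0.47). H2bc11 differed by 1.55 (SE 0.24) and H2ac11 by 0.40 (SE 0.42), while H2bc12 differed by 0.66 (SE 0.18) and H2ac12 by 0.37 (SE 0.40). The per-sample gap between partners did not separate the genotypes in any pair. The smallest two-sided exact permutation p at E11.5 was 0.057, for H2ac7 and H2bc7 and for H2ac15 and H2bc15, and 0.57 after Benjamini-Hochberg adjustment over 20 tests (4 pairs at 5 stages). The smallest p possible with 4 against 4 samples is 0.029.

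**Figure D4:**
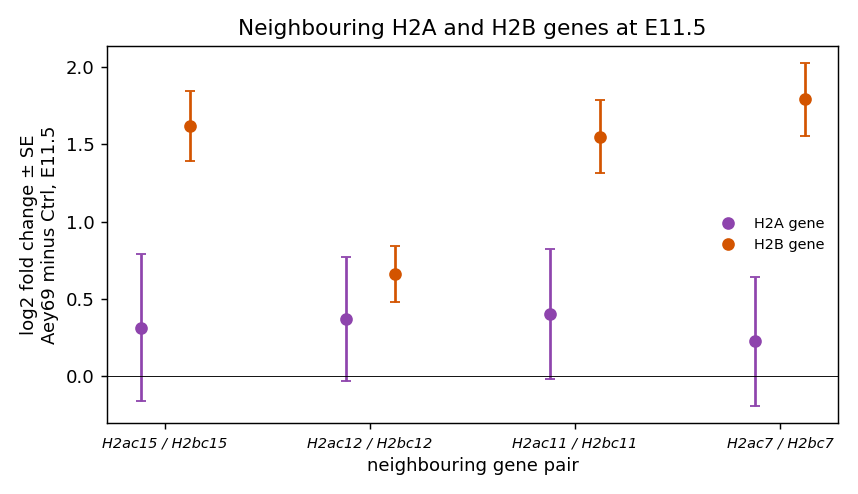
Log2 fold change at E11.5, Aey69 minus Ctrl, with the standard error of the fit, for 4 neighbouring pairs of an H2A and an H2B gene. The H2B partner (1.79 for H2bc7) lies above the H2A partner (0.22 for H2ac7) in each pair, and the H2A error bars are the wider ones.

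The 5 genes of the chromosome 3 cluster lie on the same chromosome as the mutated H3c14. None was called at E11.5. H2bc18 was 6.75, 6.88, 7.0 and 7.01 in Aey69 heads, against 6.28, 6.31, 6.38 and 6.59 in Ctrl heads, without overlap (difference 0.52, SE 0.14). The others had differences of 0.24 (SE 0.20) for H4c14, 0.34 (SE 0.21) for H2ac18, 0.38 (SE 0.28) for H2ac20 and 0.64 (SE 0.50) for H2ac21. The median of the 5 chromosome 3 genes was 0.38 and that of the 30 detected chromosome 13 genes 0.59. For H2A genes alone the medians were 0.38 (3 genes) and 0.37 (9 genes). H2bc18 has another, dimmer probe, which differed by 0.74 at E11.5.

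In heads at E10.5, a day earlier, 0 of 33 detected members were called by limma, and 0% of the 9138 genes tested. The direction was opposite to that at E11.5. At an unadjusted p under 0.05, 6 members were lower in Aey69 (H4c6, H4c8, H4c9, H4c12, H2bc7 and H2ac8) and 0 higher, against 0.525% of all genes lower and 0.416% higher. The count of 6 was 21 without Ctrl sample 3, 11 without Aey69 sample 5, 3 without Aey69 sample 4, 2 without Ctrl sample 2 or Aey69 sample 2, and 1 without Ctrl sample 4. It was 3 with arrays scaled by their medians and 14 with the replicate block. The median difference was -0.38 for the members and 0.02 for all genes. The member median was the value of H4c3. H4c3 and H2ac18 were each detected in 3 of 4 Ctrl heads and 1 of 4 Aey69 heads. Both passed the detection filter through Ctrl heads only, and neither is among the 6. With no detection filter the medians were -0.34 and 0.01. H4c12 measured 5.90, 6.04, 6.09 and 6.20 in Aey69 heads, against 5.99, 6.72, 6.82 and 6.93 in Ctrl heads (difference -0.56, SE 0.20). H2bc7 measured 9.21, 9.45, 9.49 and 9.54 in Aey69 heads, against 9.17, 10.13, 10.23 and 10.44 in Ctrl heads (difference -0.57, SE 0.25). In both genes 3 Ctrl heads lay above all mutants, and Ctrl sample 3 lay within or below them. H2ac8 ranged from 6.01 to 6.67 in Aey69 heads and from 6.51 to 7.15 in Ctrl heads (difference -0.51, SE 0.19). The groups overlapped in all 33 members, while they did not in 0.46% of all genes with Aey69 higher and 0.405% with Aey69 lower.

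The change of the genotype difference between E10.5 and E11.5 was tested as an interaction in a limma model of all 10 groups. It called 0 of 35 members and 0.0104% of the 9610 genes tested. At an unadjusted p under 0.05 the difference moved upward in 19 members and downward in 0, against 3.11% of all genes upward and 1.99% downward. The median change was 0.90 for the members and 0.04 for all genes. The member median was the value of H1f1. H1f1 and H2bc6 passed the detection filter through the Aey69 heads at E11.5 only, and both count among the 35. With no detection filter the medians were 0.86 and 0.03. The smallest adjusted p was 0.19, for H4c12 (1.54, SE 0.32) and H4c6 (1.24, SE 0.26), and H2bc7 changed most (2.36, SE 0.52, limma adjusted p = 0.22). The count depended on Ctrl sample 3 at E10.5, whose H4 and H2B class means were 6.29 and 7.39, against 6.73 to 6.75 and 8.0 to 8.29 in the other 3 Ctrl heads. Without it, 9 members were called, namely H2bc3, H2bc7, H2bc9, H2bc15, H4c4, H4c6, H4c8, H4c12 and H4c18. Without any of the other 15 head samples, 0 were called. The interaction and the E11.5 comparison share the E11.5 samples.

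Within Aey69 mutants, heads at E11.5 had 23 of 35 members called higher than heads at E10.5 and 1 called lower, against 18.8% of the 9308 genes tested called higher and 13% lower. The 23 were 9 of 10 H2B, 8 of 10 H4, 5 of 12 H2A and 1 of 3 H1 genes. Of the 35, H1f1, H2ac18, H2bc6 and H4c3 passed the detection filter through the E11.5 heads only. In Aey69 heads at E10.5, H1f1 was detected in 0 of 4, and H2ac18, H2bc6 and H4c3 in 1 of 4 each. At E11.5, H2bc6 was detected in 3 of 4 and H1f1, H2ac18 and H4c3 in 4 of 4. H2bc6 and H4c3 count among the 23. H2bc18 rose by 1.35 (SE 0.17), H2bc9 by 1.57 (SE 0.36) and H4c8 by 0.82 (SE 0.16), and H2ac8 fell by 0.38 (SE 0.14). Within Ctrl, 1 of 33 members was called higher at E11.5 and 4 lower, against 8.57% and 5.92% of the 9381 genes tested. H2bc18 rose by 0.82 (SE 0.17), while H2ac8 fell by 0.87 (SE 0.15), H4c18 by 0.89 (SE 0.25), H4c6 by 0.69 (SE 0.18) and H4c9 by 0.55 (SE 0.17). H2bc18 was thus the only member called higher in heads of both genotypes, and H2ac8 the only one called lower in both. The dimmer H2bc18 probe changed by 0.47 in Aey69 heads and by -0.50 in Ctrl heads, neither called. The number called in Aey69 was 14 without Aey69 sample 2 at E10.5, 14 without Aey69 sample 3 at E11.5 and 13 without Aey69 sample 4 at E11.5. The number called in Ctrl was 3 without Ctrl sample 4 at E10.5, 3 without Ctrl sample 3 at E11.5 and 8 without Ctrl sample 3 at E10.5.

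At E9.5, in whole embryos, 0 of 31 detected members were called by limma, and 0% of the 9127 genes tested. At an unadjusted p under 0.05, 7 members were higher in Aey69 and 0 lower, against 6.32% of all genes higher and 4.16% lower. With 1 array left out the count of 7 was 4 (without Ctrl sample 5 or Aey69 sample 3) to 9 (without Ctrl sample 2 or Aey69 sample 2), and 1 was lower without Aey69 sample 3. It was 2 in the model of all 10 groups or with the excluded arrays, and median scaling gave 3 higher and 2 lower. All 7 were H2A genes, of 11 detected. H2ac21 measured 8.20, 8.82, 8.89 and 9.21 in Aey69 embryos, against 7.30, 7.85 and 7.88 in Ctrl embryos (difference 1.10, SE 0.25). H2ac22 measured 11.03, 11.46, 11.53 and 12.10 in Aey69 embryos, against 10.36, 10.49 and 10.66 in Ctrl embryos (difference 1.02, SE 0.23). H2ac10 differed by 0.94 (SE 0.22). The groups did not overlap in 4 members, H2ac10, H2ac11, H2ac21 and H2ac22, against 8.01% of all genes. The median difference was 0.49 for H2A, 0.19 for H2B, 0.07 for H4 and 0.02 for all genes. With arrays scaled by their medians instead, the median of all genes at E9.5 was -0.33 and that of the members -0.18, a member median higher than that of all genes by 0.15. In the fit without median scaling this gap was 0.19, and it was 0.01 without Ctrl sample 2 and -0.03 without Aey69 sample 4.

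At E12.5, in the eye region, 0 of 34 detected members were called by limma, against 0.622% of the 9653 genes tested. H1f2 alone had an unadjusted p under 0.05 and was lower in Aey69, at 7.77, 8.13, 8.16 and 8.30, against 8.44, 9.05 and 9.22 in Ctrl (difference -0.81, SE 0.22, limma adjusted p = 0.31). In the model of all 10 groups H1f2 was called (limma adjusted p = 0.072). Of all genes, 6.64% were lower and 8.84% higher at that p. The class medians were 0.48 for H2A, -0.10 for H2B and -0.01 for H4. The Ctrl eye regions were far apart. H2A class means were 10.59 to 11.10 in Aey69 and 9.68 to 11.25 in Ctrl, the highest of them Ctrl sample 2. Without that sample 12 members were called, 11 higher and 1 lower (H1f2), 9 of them H2A genes, and 3180 of all genes were called. The mesenchyme markers Col1a1, Col1a2, Col3a1, Dcn and Postn, of which 4 of 5 were detected in each genotype at E12.5, had a mean level of 6.4 to 6.89 in Aey69 and 7.72 to 8.43 in Ctrl. The lens markers had a mean level of 4.89 to 5.08 in Aey69 and 8.05 to 8.97 in Ctrl. The early neuron markers, 8 of 10 detected in Aey69 and 9 of 10 in Ctrl, did not overlap either, at 9.01 to 9.06 in Aey69 and 8.71 to 9.0 in Ctrl. Their part in the histone values was not tested.

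At E13.5, in the eye, 0 of 35 detected members were called by limma, against 1.63% of the 9978 genes tested. At an unadjusted p under 0.05, 9 members were lower in Aey69 and 0 higher, against 11.9% of all genes lower and 8.74% higher. The count of 9 was 4 without Ctrl sample 2 or Aey69 sample 4, 5 without Ctrl sample 4 or Aey69 sample 5, 6 without Aey69 sample 2 and 13 without Ctrl sample 5, and it was 1 in the model of all 10 groups or with the excluded arrays, and 5 with the replicate block. The groups did not overlap, with Aey69 lower, in 12 members, against 18.9% of all genes. H2bc4 measured 7.55, 7.77 and 7.88 in Aey69 eyes, against 8.17, 8.33 and 8.59 in Ctrl eyes (difference -0.63, SE 0.15, limma adjusted p = 0.13). H2bc18 measured 6.51, 6.67 and 6.81 in Aey69 eyes, against 7.09, 7.11 and 7.17 in Ctrl eyes (difference -0.46, SE 0.12). Its dimmer probe, detected in 2 of 3 eyes of each genotype, averaged 5.06 in Aey69 and 5.17 in Ctrl. H2ac1 was detected in 0 of 3 Aey69 eyes and in 2 of 3 Ctrl eyes, and was at least 1.02-fold higher in Ctrl eyes (limma adjusted p = 0.18). It passed the detection filter through Ctrl eyes only, and it counts among the 9 and the 12 members above. Median differences were -0.27 for H2B, -0.18 for H4, -0.05 for H2A and -0.05 for all genes. Without Ctrl sample 4 of that stage, H1f2 (-0.53) and H2bc4 (-0.64) were called. Lens markers had a mean level of 4.76 to 4.79 in Aey69 eyes and 13.33 to 13.73 in Ctrl eyes. The early neuron markers, 8 of 10 detected in Aey69 and 9 of 10 in Ctrl, lay at 6.94 to 7.17 in Aey69 eyes and 7.20 to 8.21 in Ctrl eyes. The eye field and optic cup markers, 2 of 4 detected in each genotype, lay at 5.06 to 5.13 in Aey69 eyes and 5.50 to 5.64 in Ctrl eyes. The mesenchyme markers, 4 of 5 detected in Aey69 and 5 of 5 in Ctrl, were higher in each mutant, at 8.69 to 9.03 in Aey69 eyes and 8.41 to 8.64 in Ctrl eyes. Their part in the histone values was not tested.

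Replicates within a group showed which members varied together. After subtracting each group's mean, H2A genes had a median pairwise r of 0.83 over the 36 arrays of 10 groups (66 pairs), H2B genes 0.82 (36 pairs) and H4 genes 0.55 (45 pairs). Between classes the median r was 0.61 for H2B with H4, 0.37 for H2A with H2B and 0.31 for H2A with H4. H1f5 followed most H2B genes, with r of 0.91 with H2bc11 and 0.91 with H2bc3. H1f2 did not. It had r of 0.69 with H2bc4 and -0.62 with H2ac21. The brighter H2bc18 probe had a negative r with each other H2B gene compared. The strongest were -0.64 with H2bc3 and -0.62 with H2bc15, and the weakest -0.39 with H2bc12 and -0.08 with H2bc4. The dimmer H2bc18 probe was not part of this comparison. All points share their arrays and normalisation, and near-identical transcripts may share signal. The median within-group SD was 0.56 for H2A, 0.41 for H2B and 0.25 for H4, beside 0.26 for 9187 genes in all.

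**Figure D5:**
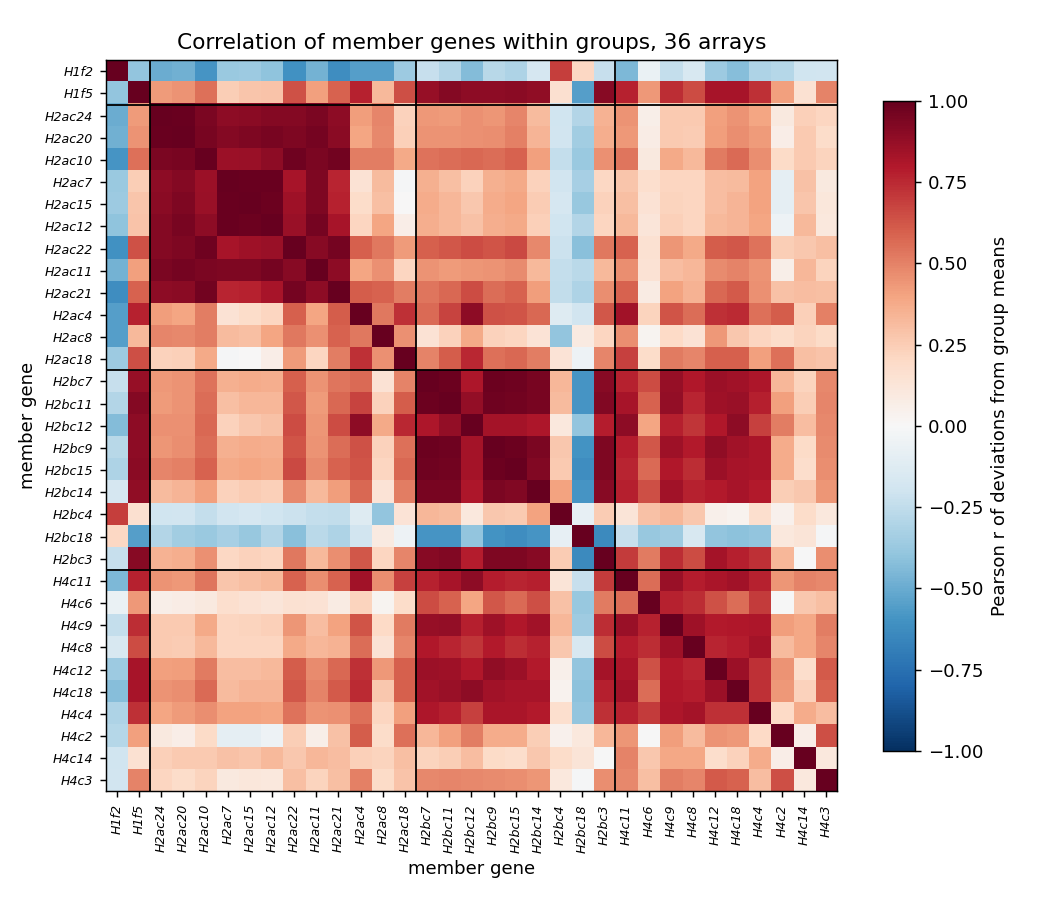
Pearson r between 33 member genes of their deviations from group means over 36 arrays, ordered by class and, within a class, by brightness. Colour runs from r of -1 (blue) to 1 (red), and lines separate H1, H2A, H2B and H4. The bright H2A genes and most H2B genes form separate red blocks (median r 0.83 and 0.82), with H1f5 following the H2B block. H2bc4, H2bc18 (brighter probe only) and H1f2 lie apart from the H2B block.

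None of the pathway genes outside the family was called in heads at E11.5. Of 31 detected genes for DNA replication and S phase, 0 were called by limma, 1 was lower at an unadjusted p under 0.05 (Mcm3, a helicase subunit, -0.63, SE 0.28) and 0 higher. Their median difference was 0.02. Pcna, the replication clamp, differed by 0.27 (SE 0.31). From E10.5 to E11.5, 11 of 32 detected replication and S phase genes were called lower in Aey69 heads and 1 higher (median -0.27). In Ctrl heads 8 of 32 were called lower and 0 higher (median -0.28). Of all genes, 13% were called lower in Aey69 heads and 5.92% in Ctrl heads. At an unadjusted p under 0.05, 6 of 33 were higher in Aey69 at E12.5 and 7 of 33 at E13.5 (1 called), and 0 lower. Of all genes, 8.84% and 8.74% were higher. Of 13 detected genes for histone mRNA transcription and processing, 0 were called at E11.5, with a median of 0.12. Cpsf2, a subunit of the 3' end cleavage complex, was higher at an unadjusted p under 0.05 (0.37, SE 0.16). Hinfp differed by 0.05 (SE 0.17). Of 8 detected H3 genes, 0 were called and 1 was higher at an unadjusted p under 0.05 (H3c1, 0.38, SE 0.16), with a median of 0.28. The mutated H3c14 itself has a bright and a dim probe. The bright one overlapped at E11.5, at 10.06 to 10.41 in Aey69 heads and 10.12 to 10.77 in Ctrl heads. The dim one did not, at 6.07 to 7.25 in Aey69 heads and 4.97 to 5.50 in Ctrl heads. The probe sequences were not used, so whether either probe covers the base change is not known here.

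Other measures of the samples moved beside the E11.5 result. The percentage of probes detected was 47.4 to 51.8 in Aey69 heads and 51.8 to 53.5 in Ctrl heads. Every mutant lay below every control, but the highest mutant (51.765) and the lowest control (51.773) nearly touched. The erythroid markers Hba-x, Hbb-y, Hbb-bh1 and Alas2, 4 of 4 detected in both genotypes, had a mean level of 8.66 to 13.01 in Aey69 heads and 9.55 to 12.90 in Ctrl heads at E11.5, and of 10.87 to 13.25 in Aey69 heads and 8.98 to 13.21 in Ctrl heads at E10.5. Their part in the histone values was not tested. The early neuron markers overlapped too, at 8.06 to 8.43 in Aey69 heads and 7.99 to 8.58 in Ctrl heads at E11.5. The lens markers, 1 of 5 detected in Aey69 and 2 of 5 in Ctrl, lay at 4.77 to 5.08 in Aey69 heads and 4.95 to 5.74 in Ctrl heads. The forebrain markers, 1 of 2 detected in each genotype, lay at 5.23 to 5.73 in Aey69 heads and 5.42 to 6.08 in Ctrl heads, and Dlx2 was lower at an unadjusted p under 0.05 (-0.49, SE 0.19). The mesenchyme markers, 4 of 5 detected in each genotype, lay at 6.90 to 7.12 in Aey69 heads and 6.66 to 7.08 in Ctrl heads. The part of these lists in the histone values was not tested.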

How the data were processed

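Total RNA was extracted with Trizol and RNeasy, amplified with the TotalPrep kit and hybridised to MouseRef-8 v2.0 BeadChips. The authors deposited background-subtracted bead intensity for 40 arrays from GenomeStudio, with a detection p-value for each probe, and a table of processed signal for 36 arrays, offset and quantile-normalised by the authors. They marked 4 arrays as excluded, which enter only an alternative here. Deposited intensities ran from -21 to 28964, so an offset of 22 was added before quantile normalisation and log2. Genotypes were compared per stage with limma 3.58.1 in R 4.3.3, and head stages and their interaction in a model of 10 groups, with Benjamini-Hochberg adjustment over 25697 probes, a false discovery rate of 10%, and a detection filter applied afterwards. A gene is represented by its brightest detected probe. On the authors' processed values, same-numbered samples of both genotypes deviated together in 3 of 3 pairs at E9.5 (r 0.50, 0.57 and 0.11). At E10.5 r was 0.55, 0.65, 0.06 and 0.80. At both stages each Aey69 sample of a pair correlated best with the Ctrl sample of its own number. The block left the count of called members at 0 at both. With it, 14 members in place of 6 were lower at an unadjusted p under 0.05 at E10.5. The E10.5 differences above are from the fit without the block. At each later stage at least 1 pair had r under 0.1. Intensity over background and the number of arrays limit the precision. The fit was tested on simulated data in which each probe varied independently. The members varied together within groups, so that test does not show how reliable their calls are. Samples are named by the number in the deposited intensity table.

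The members, gene lists and tests were chosen with earlier results of these data known. Named genes are the members called in a genotype comparison or interaction, the 3 largest changes in each direction per stage at an unadjusted p under 0.05, the 2 brightest per class, the chromosome 3 genes, and members whose probes disagree. Any other gene was named after its values were seen.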

Additional observations from a re-analysis of the deposited data

Results flagged for a closer look

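Of 36 sets of 4 samples checked (4 class means in each group of 4, and the 6 called genes at E11.5), 1 held a sample far from the others. The H4 class mean of Ctrl sample 3 at E10.5 was 6.29, against 6.73 to 6.75 in the other 3 Ctrl heads, a gap of 0.96 of the whole range. The critical value that the gap was set against is passed by chance in about 1 of 20 sets. Its part in the differences at E10.5 was not tested beyond leaving it out: without it, the median difference of the members at E10.5 was -0.56 in place of -0.38.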

How the results depend on the processing

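The count of called members at E11.5 was 6, and 7 with log2 taken before normalisation, on the authors' processed values, with adjustment over detected probes or with the excluded arrays included. It was 5 with arrays scaled by their medians, 3 with an offset of 50, and 0 in the model of all 36 samples. The title numbers could be used as a block only on the authors' processed values. With this replicate block the count at E11.5 was 0, against 7 on the same values without it. There, same-numbered samples at E11.5 deviated together in some pairs and not in others (r 0.34, 0.61, -0.57 and -0.12). The numbers were not taken as pairs at that stage, but the mixed r values do not settle which of the 2 counts is the better. The block changed no other count of called members by over 1.5 times. At E13.5, where 0 were called, the count was 2 with an offset of 50, 2 with adjustment over detected probes and 1 with median scaling. At E12.5 it was 1 in the model of all 36 samples (H1f2). For Aey69 heads at E11.5 over E10.5 the count of 24 was 14 with median scaling and 8 with the excluded arrays, and for Ctrl heads the count of 5 was 0 with them. H2ac1 at E13.5 was 0.0376 with the excluded arrays, in place of -0.41. The cause was not tested.

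With 1 array left out in turn, counts ranged from 0 to 6 at E11.5, 0 to 12 at E12.5, 0 to 2 at E13.5, 0 to 9 for the interaction, 13 to 29 for Aey69 heads and 3 to 8 for Ctrl heads, and were 0 to 0 at E9.5 and E10.5. Without Ctrl sample 2, the E12.5 count was 12. Median scaling moved the median of all genes at E9.5, E11.5 and the interaction to -0.33, -0.08 and -0.15. Relative to it, the members were higher by 0.15, 0.47 and 0.91. Over all genes, the count called was 8 at E11.5, and 5 with an offset of 50, 2 in the model of all 36 samples and 1 with the replicate block. At E12.5 it was 60, and 39 with median scaling, 140 with an offset of 50, 148 with adjustment over detected probes, 6 with the excluded arrays, 412 in the model of all 36 samples and 3 with the block. At E13.5 it was 163, and 256, 808, 576, 9, 106 and 37 under the same settings in that order. With the excluded arrays, none of which is a head, the count was 611 in place of 2958 for Aey69 heads and 286 in place of 1359 for Ctrl heads. A block of chip or slide was not run, since the sources used here give neither.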
